A study of Mus musculus with 217 samples.

Results

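Lowering of mutant huntingtin from conception was compared with lowering from 2 months of age in the striatum of 12-month-old mice by RNA sequencing. The comparison used 20 of the 57 striatal libraries made at 12 months and of the 217 libraries of the series, chosen by tissue, age and treatment label alone. LacQ140_A (n = 10, 5 females and 5 males) was never given IPTG, so the Lac repressor could act on the mutant allele throughout life. LacQ140_2M (n = 10, 5 females and 5 males) received IPTG from E5 until its withdrawal at 2 months, so the allele was released in embryo and young adult and open to the repressor for the 10 months before collection. Both groups, and every other Q140 group used here, were C57BL/6 mice labelled Hdh(LacO-140Q/+):beta-actin-LacIR tg: 1 Htt allele with the expanded repeat and Lac operators in its promoter, 1 normal allele, and a Lac repressor driven in all tissues by the beta-actin promoter. Also read were LacQ140 (IPTG from E5 with no withdrawal, n = 9), LacQ140_8M (withdrawal at 8 months, n = 9), WT_IPTG (n = 10) and WT without IPTG (n = 9), whose genotype is Hdh(LacO-+/+):beta-actin-LacIR tg. Each library came from its own mouse, and the labels give a single batch to all 12-month libraries. The comparison asks whether having expressed the mutant allele up to the age of 2 months left a difference in RNA at 12 months. The groups also differ in exposure to IPTG itself over that time, and no wild-type group had IPTG withdrawn at 2 months. Early exposure to IPTG and early expression of the allele therefore cannot be told apart here.

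In this system the repressor sits on operators around the start of the mutant allele and lowers its transcription without stopping it, and the sugar analogue IPTG releases it. Huntington's disease is caused by an expanded CAG repeat in Htt, and spiny projection neurons of the striatum, which make up most of its cells, lose expression of their characteristic genes early in mouse models. Genes that are normally silenced by Polycomb complexes in adult neurons, among them developmental transcription factors, become detectable in the same models. Since these are bulk tissue libraries, fewer cells of a type and less RNA per cell cannot be told apart.

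Values are CPM, counts scaled to the library size after TMM normalization, which are not corrected for transcript length and are compared within a gene only. A gene was called when its adjusted p in the edgeR fit was under 0.05 and its difference at least 20%. The 20 libraries held 33292014 to 47625708 counts. In 3 LacQ140_A females, F1, F2 and F3, the slope of log2 CPM on log2 transcript length was 0.277, 0.325 and 0.312, below the other 17 libraries (0.408 to 0.546), meaning that long transcripts took a smaller share of their counts. Values without these 3 libraries stand beside the results they moved most. The spiny neuron markers were abundant in every library. Ppp1r1b, the dopamine- and cAMP-regulated phosphatase inhibitor, was at 1766, 2022 and 2587 CPM (lowest, median and highest) in LacQ140_A and at 1380, 1971 and 2328 CPM in LacQ140_2M.

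Htt itself (chromosome 5, 34761740 to 34912534, plus strand; coordinates are from GENCODE vM21 on GRCm38) was measured as the sum of both alleles, which the counts do not separate. It stood at 71.4, 90.9 and 117 CPM (lowest, median and highest) in LacQ140_A and at 85.1, 101 and 119 CPM in LacQ140_2M. The ranges overlapped over most of their length. The log2 difference of LacQ140_A minus LacQ140_2M was −0.10 ± 0.067 (SE; adjusted p = 0.793, 95% confidence interval −0.24 to 0.029). It was 0.0014 without F1, F2 and F3 and −0.027 with the length slope as a covariate (adjusted p = 1 and 0.923). LacQ140_A females ran from 71.4 to 93.5 CPM, below the 95.6 to 106 CPM of the LacQ140_2M females, while in males LacQ140_A (85.8 to 117) and LacQ140_2M (85.1 to 119) covered the same range. Group means were 93.4 ± 15.9 (SD) in LacQ140_A, 100.3 ± 11.1 in LacQ140_2M, 111 in LacQ140, 111 in LacQ140_8M and 146 in WT_IPTG.

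Few genes separated lowering from conception and lowering from 2 months. Of 35386 genes tested, 18 were called (0.0509% of those tested), 7 higher in LacQ140_A (0.0198%) and 11 lower (0.0311%). Without the fold bound 21 genes had an adjusted p under 0.05. Of the 18, 11 are protein-coding. The genes lower in LacQ140_A that are described here fell into 2 kinds: Wt1, Onecut1, Bahcc1, Asb18 and Gk5 were lower across most mice, while 4 lymphocyte genes were high in 1 LacQ140_2M mouse. The genes higher in LacQ140_A were mostly noncoding RNAs seen in few mice. Leaving out F1, F2 and F3 left 4 calls, among them Wt1, Cd8b1 and the pseudogene Gm2808.

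Wt1 and Onecut1, transcription factors that build organs in the embryo and are nearly silent in the wild-type striatum, were both lower after lowering from conception. Wt1 (chromosome 2, 105126529 to 105173616, plus strand), a zinc-finger factor of kidney and gonad development, was at 0.888, 1.45 and 2.26 CPM in LacQ140_A and at 1.65, 2.23 and 3.76 CPM in LacQ140_2M. Of the 10 LacQ140_A mice, 8 lay below every LacQ140_2M mouse. The log2 difference was −0.74 ± 0.144 (SE; adjusted p = 0.00993), a level 1.67-fold higher in LacQ140_2M. The difference was −0.76 in females and −0.68 in males, and the sexes' differences did not separate (interaction −0.09, adjusted p = 1). Means rose from 0.0858 CPM in WT_IPTG through 1.45 in LacQ140_A and 2.39 in LacQ140_2M to 4.62 in LacQ140_8M and 4.78 in LacQ140, so both early groups lay between WT_IPTG and LacQ140, which expressed the allele throughout. Without F1, F2 and F3 the Wt1 difference was −0.81 (adjusted p = 0.0467), and with all other groups left out of the fit it was −0.74 with an adjusted p of 0.138.

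Onecut1 (chromosome 9, 74861921 to 74891781, plus strand), a homeodomain factor of liver, pancreas and neuronal development, was at 0.107, 0.282 and 0.718 CPM in LacQ140_A and at 0.567, 0.83 and 1.07 CPM in LacQ140_2M. Of the LacQ140_2M mice, 8 of 10 lay above every LacQ140_A mouse. The log2 difference was −1.24 ± 0.259 (SE; adjusted p = 0.0208), a 2.36-fold higher level in LacQ140_2M. WT_IPTG averaged 0.0124 CPM, LacQ140_8M 2.04 and LacQ140 2.01. Without F1, F2 and F3 the difference was −1.01 (adjusted p = 0.2996), and the call was held in 13 of the 20 fits that left out 1 mouse. With all other groups left out of the fit it was −1.24 with an adjusted p of 0.0640.

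The promoter of Onecut1 is shown because the genes in this class are usually silenced at CG-rich starts, beside that of Asb18, which was also lower in LacQ140_A and is CG-poor. Both are RefSeq sequences on GRCm38.p6, from 250 bases before to 50 after the start, with every CG in capitals. Onecut1 (chr9:74861671-74861970, plus strand) has 38 CG, a number reached by 4.95% of 32851 promoters of this length. Asb18 (chr1:90014617-90014916, minus strand) has 4 CG, reached by 68.6%. The median promoter has 7. Of the other genes called lower whose promoters were read, Gk5 has 35 CG (reached by 6.95%) and Bahcc1 23 (21.5%), and both were measured in wild-type striatum, so CG-rich starts were not confined to the silent genes among these 4.
Onecut1: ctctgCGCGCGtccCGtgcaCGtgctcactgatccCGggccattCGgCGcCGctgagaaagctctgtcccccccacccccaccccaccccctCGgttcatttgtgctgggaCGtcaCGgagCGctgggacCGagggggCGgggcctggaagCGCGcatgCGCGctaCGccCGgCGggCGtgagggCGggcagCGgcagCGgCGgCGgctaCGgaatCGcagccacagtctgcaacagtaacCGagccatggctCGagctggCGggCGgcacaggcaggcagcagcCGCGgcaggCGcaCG
Asb18: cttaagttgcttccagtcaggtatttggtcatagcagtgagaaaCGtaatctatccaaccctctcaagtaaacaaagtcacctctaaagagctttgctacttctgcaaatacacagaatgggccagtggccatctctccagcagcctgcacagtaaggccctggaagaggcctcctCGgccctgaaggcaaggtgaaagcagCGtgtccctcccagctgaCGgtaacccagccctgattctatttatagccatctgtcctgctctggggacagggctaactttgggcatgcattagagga

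Bahcc1, Asb18 and Gk5 differed less in fold and were measured in wild-type striatum at similar levels. Bahcc1 (chromosome 11, 120232947 to 120292296, plus strand), a chromatin protein that binds a Polycomb histone mark, was at 22.1, 27.8 and 39.3 CPM in LacQ140_A and at 35.3, 39.3 and 46.002 CPM in LacQ140_2M. Of the LacQ140_A mice, 9 of 10 lay below every LacQ140_2M mouse, and the log2 difference was −0.46 ± 0.079 (SE; adjusted p = 0.00148). Bahcc1 was called in each of the 20 fits that left out 1 mouse, and without F1, F2 and F3 its difference was −0.38 (adjusted p = 0.102). The mean in LacQ140_A (29.1 ± 5.52, SD) lay beside WT_IPTG (30.1), and that in LacQ140_2M (40.2 ± 4.39) beside LacQ140 (37.3).

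Asb18 (chromosome 1, 89950220 to 90014666, minus strand), of the ankyrin-repeat and SOCS-box family of ubiquitin ligase adaptors, was at 2.50, 3.48 and 4.14 CPM in LacQ140_A and at 4.10, 4.82 and 5.20 CPM in LacQ140_2M. Of the LacQ140_A mice, 9 of 10 lay below all LacQ140_2M mice. The log2 difference was −0.45 ± 0.089 (SE; adjusted p = 0.0128), in females −0.54 and in males −0.37, and without F1, F2 and F3 it was −0.41 (adjusted p = 0.161). WT_IPTG averaged 3.07 CPM and LacQ140 4.90.

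Gk5 (chromosome 9, 96119362 to 96184608, plus strand), a member of the glycerol kinase family, was at 1.18, 1.60 and 2.26 CPM in LacQ140_A and at 1.67, 2.61 and 3.17 CPM in LacQ140_2M, a log2 difference of −0.59 ± 0.128 (SE; adjusted p = 0.0372). Of the LacQ140_2M mice, 8 of 10 lay above every LacQ140_A mouse. Gk5 was the least firm of these 5 calls, held in 6 of the 20 fits that left out 1 mouse, and without F1, F2 and F3 its difference was −0.50 (adjusted p = 0.364). The adjusted p of Gk5 was 0.136 with all other groups left out of the fit and 0.0691 with the length slope as a covariate. Gk5 was not called between LacQ140 and WT_IPTG (adjusted p = 0.0752).

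**Figure D1:**
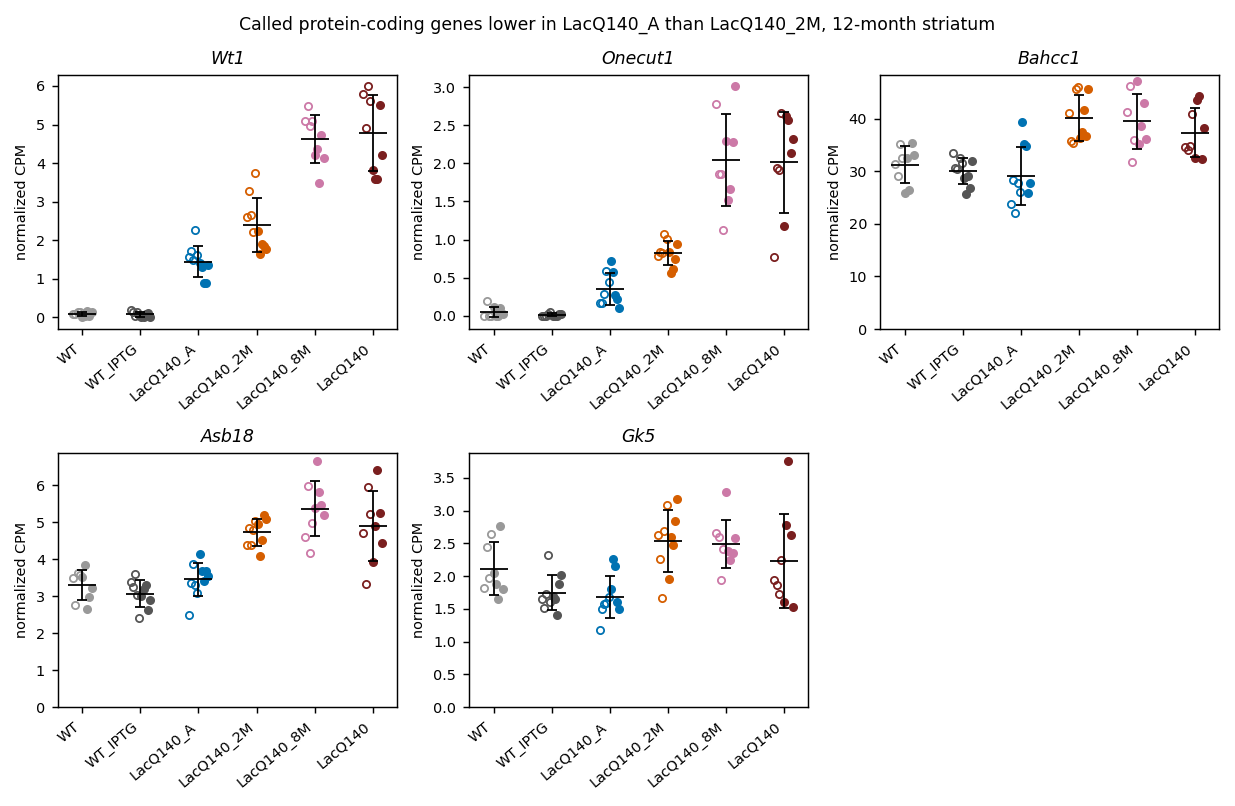
Normalized CPM of Wt1, Onecut1, Bahcc1, Asb18 and Gk5 in each 12-month striatal library by group. Open points are females, filled points males, and bars the mean ± SD. For Wt1 and Onecut1, LacQ140_A (means 1.45 and 0.354) and LacQ140_2M (means 2.39 and 0.823) lie between the wild-type groups and LacQ140, while for Bahcc1 and Gk5 the LacQ140_A points lie at the height of WT_IPTG.

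Differences smaller than 20% were more even from mouse to mouse in a few genes. Only 3 of 35386 genes (0.00848%) had all 10 LacQ140_A mice below all 10 LacQ140_2M mice, and 0 genes had them all above. Grid1 (chromosome 14, 34820108 to 35583379, plus strand), which encodes a delta-type glutamate receptor subunit that organizes synapses, was at 73.4, 82.5 and 84.4 CPM in LacQ140_A and at 87.2, 92.7 and 101 CPM in LacQ140_2M. The log2 difference was −0.21 ± 0.044 (SE; adjusted p = 0.0227), 13.7% below LacQ140_2M, and it was −0.18 without F1, F2 and F3 (adjusted p = 0.282). LacQ140_A (mean 80.1 ± 4.75, SD) was beside LacQ140 (81.5), and LacQ140_2M (92.8 ± 4.79) was nearer to WT_IPTG (96.4), the opposite order to Bahcc1. Timp2, an inhibitor of matrix metalloproteinases, ran from 336 to 365 CPM in LacQ140_A and from 365 to 402 CPM in LacQ140_2M (log2 difference −0.12, adjusted p = 0.180), and Lrrc20 from 32.2 to 35.7 and from 36.4 to 41.6 CPM (log2 difference −0.17, adjusted p = 0.154). The other 2 genes with an adjusted p under 0.05 and a difference under 20% were Bcl7a, a subunit of the BAF chromatin remodelling complex (medians 68.5 and 78.9 CPM, −0.21 ± 0.044, adjusted p = 0.0227; −0.20 and 0.196 without the 3 females), and Sh3pxd2a, a scaffold of podosomes (medians 60.8 and 73.5 CPM, −0.26 ± 0.057, adjusted p = 0.0445; −0.19 and 0.594 without them). Grid1, Timp2, Lrrc20, Bcl7a and Sh3pxd2a are named for values already seen, except Grid1, which the naming rule reached.

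Of the 7 genes higher in LacQ140_A, Gm12940 was the one that was raised across mice. It is a processed transcript (chromosome 4, 127033731 to 127049398, plus strand) that overlaps Sfpq, a splicing factor gene on the same strand, so that their reads may be shared. It was at 2.33, 4.51 and 7.99 CPM in LacQ140_A and at 1.68, 2.52 and 3.49 CPM in LacQ140_2M, and 9 of 10 LacQ140_A mice lay above every LacQ140_2M mouse. The log2 difference was 0.91 ± 0.184 (SE; adjusted p = 0.0183). LacQ140_2M was the lowest of the 6 groups: the means were 4.21 CPM in WT_IPTG, 3.67 in WT, 3.93 in LacQ140, 3.32 in LacQ140_8M, 4.68 in LacQ140_A and 2.49 in LacQ140_2M. The difference was 0.76 without F1, F2 and F3 (adjusted p = 0.282) and 0.83 with the length slope as a covariate (adjusted p = 0.0614), neither a call, and DESeq2 called it (adjusted p = 0.00763).

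The other 6 were high in few mice. Gm26723, a long noncoding RNA, stood at 90.1, 32.9 and 45.7 CPM in the LacQ140_A females F1, F2 and F3, was listed at 0 in 6 of the other 7 LacQ140_A mice and at 0.601 in the last, and reached at most 0.405 CPM in LacQ140_2M (adjusted p = 3.0e-05). It was also high in 3 WT females without IPTG, F2 (36.7 CPM), F3 (11.4) and F5 (42.2), and at most 0.768 CPM in the other 6 mice of that group, whose mean was 10.1 CPM, and it was listed at 0 in all 10 WT_IPTG mice. Gdf1, which encodes a growth factor of the TGF-beta family and shares its locus with the ceramide synthase gene Cers1 on the same strand, was at 6.80, 6.203 and 6.96 CPM in F1, F2 and F3, 2.09 in F5, 2.296 in M5 and at 0 in the other 5 LacQ140_A mice, and at most 0.0810 CPM in LacQ140_2M (adjusted p = 0.00942). Gm26527 (highest 14.2 CPM, in F3) and Gm17139 (highest 1.961 CPM, in F1) had the same 3 females on top, and Gm42429 was listed at 0 in all LacQ140_2M mice and was at 1.46 to 2.87 CPM in 5 LacQ140_A mice (F1, F2, F3, F5 and M5), with the highest in M5. Gm2808 was at 4.91 and 4.15 CPM in the LacQ140_A males M2 and M3 and at most 0.369 CPM in LacQ140_2M. Of these 6 only Gm2808 was still called without F1, F2 and F3, the libraries with the low length slope. With the length slope as a covariate none of the other 5 was called by edgeR (adjusted p = 0.779 for Gm26723, 0.225 for Gdf1, 0.601 for Gm26527, 0.784 for Gm17139 and 0.113 for Gm42429), and with DESeq2 none of the 6 was called (adjusted p from 0.278 for Gm42429 to 0.759 for Gm17139). The fitted log2 difference without the 3 females was 7.87 for Gm42429 and 5.99 for Gdf1, beside 8.50 and 7.90 in all mice, and 1.0, 0.74 and 0.42 for Gm26723, Gm26527 and Gm17139, beside 8.38, 4.22 and 5.01. These fitted values are set against LacQ140_2M levels at or near 0 and are no bounds.

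The lymphocyte genes Cd8b1, Ms4a4b, Il18r1 and Trbc1 were called lower in LacQ140_A. Cd8b1, a chain of the co-receptor of cytotoxic T cells, was at 4.50 CPM in M5 and at 0 to 0.124 CPM in LacQ140_A, with a LacQ140_2M median of 0.0721 CPM (adjusted p = 0.00278). M5 was the highest of the 20 libraries in 19 of 20 T and NK cell genes, a list assembled after these values were seen. The summed level of that list was 67.9 CPM in M5, 4.10 to 5.83 CPM in the other LacQ140_2M mice and 3.70 to 6.69 CPM in LacQ140_A. In the cortex of the same mouse M5 was highest in 18 of the 20. Without M5 none of the 20 (0) was called by edgeR, and with M5 kept DESeq2 called none of Cd8b1, Ms4a4b, Il18r1 and Trbc1 (adjusted p = 1). The 6 B cell genes, at 12.8 to 19.5 CPM in LacQ140_2M and 12.0 to 22.8 CPM in LacQ140_A when summed, were highest in M3 among the LacQ140_2M mice.

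**Figure D2:**
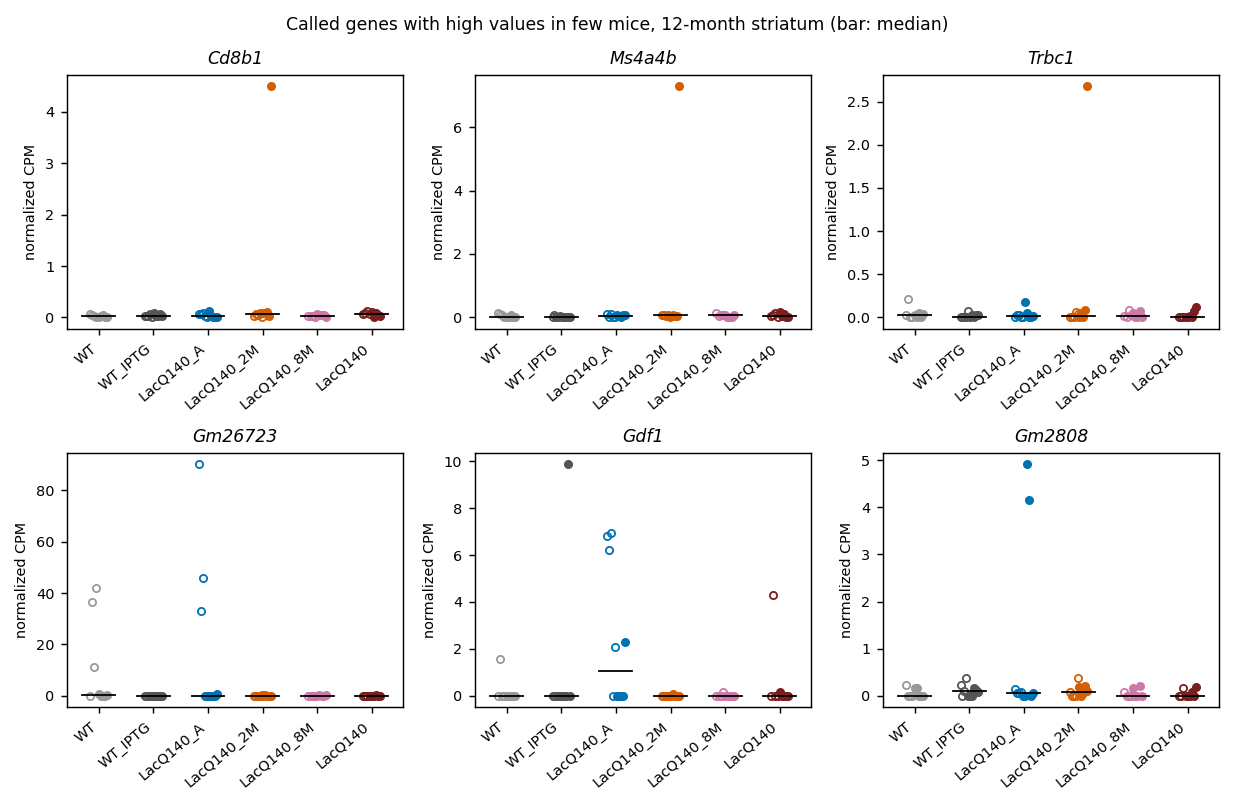
Normalized CPM of 6 called genes whose high values come from few mice, by group of 12-month striatal libraries. Open points are females, filled points males, and the bar is the median. Cd8b1, Ms4a4b and Trbc1 are high in 1 LacQ140_2M male (4.50, 7.29 and 2.68 CPM), and Gm2808 in 2 LacQ140_A males. Gm26723 is high in LacQ140_A females, and Gdf1 in LacQ140_A females and 1 LacQ140_A male.

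The position of the early-lowered mice between WT_IPTG and LacQ140 was read on lists fixed by other libraries. Between LacQ140 and WT_IPTG 3340 genes were called (9.44%; 4.58% higher and 4.86% lower), and without those called between WT_IPTG and WT (77 genes, 0.218%; 0.136% higher and 0.082% lower) 3291 formed the LacQ140 signature, 1606 higher and 1685 lower in LacQ140. Of the 18 genes called between LacQ140_A and LacQ140_2M, 5 were in the signature, beside 9.30% of all genes tested: Wt1, Onecut1, Bahcc1 and Asb18, lower in LacQ140_A, and Gm26527, higher. All 5 differed toward WT_IPTG in LacQ140_A. Without F1, F2 and F3 only Wt1 of these 5 was still called, and the Gm26527 difference was 0.74, beside 4.22 in all mice. Of the genes raised in the signature, 62.95% were lower in LacQ140_A than in LacQ140_2M, and of those reduced in it 56.2% were higher, beside 48.4% of all genes tested higher and 43.6% lower, the rest being at exactly 0. Over the genes of at least 1 CPM, 48.7% were higher and 51.3% lower. The median shifts were small, −0.04 on the log2 scale for the raised and 0.02 for the reduced genes, with 4 called lower and 1 called higher. In females these medians were −0.0051 and −0.018, in males −0.08 and 0.05, and without F1, F2 and F3 −0.07 and 0.03.

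The second list held 266 genes set earlier from several Huntington's disease models. The study also names them as changed in LacQ140 mice, so the list is not independent evidence of direction in this model. Of its 71 genes raised in the models, 55 (77.5%) were lower in LacQ140_A, with a median log2 difference of −0.11 and 2 called, Wt1 and Onecut1. Of its 195 genes reduced in the models, 136 (69.7%) were higher in LacQ140_A, with a median of 0.05 and 0 called. The medians were −0.10 and 0.07 without F1, F2 and F3. Both directions lie toward wild type in LacQ140_A.

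Each mouse was then placed on the line from the WT_IPTG mean (0%) to the LacQ140 mean (100%). The 0% point is thus wild type on IPTG. WT mice without IPTG, which the 2 early-lowered groups also lacked at collection, averaged 2.03 ± 4.55 (SD) on the 266 genes and 14.0 ± 6.48 on the signature genes. On the 266 genes LacQ140_A lay at 48.97%, 62.1% and 69.7% (lowest, median and highest) and LacQ140_2M at 66.3%, 67.9% and 88.3%. The means were 61.99 ± 6.56 (SD) and 71.4 ± 6.81, beside 88.8 ± 3.67 in LacQ140_8M. The ranges met between 66.3% and 69.7%, where 3 LacQ140_A mice (F3, M1 and M5) lay among the LacQ140_2M mice, and 1 LacQ140_2M female, F4, lay at the level of LacQ140_8M. On 2553 signature genes with a mean of at least 1 CPM the groups overlapped more, at 43.7%, 67.3% and 75.5% in LacQ140_A and 61.7%, 70.7% and 87.8% in LacQ140_2M. There the males had a mean of 58.5 ± 13.01 in LacQ140_A and 70.7 ± 5.52 in LacQ140_2M, and the females stood at 69.7 ± 3.73 and 70.8 ± 10.1. The 3 LacQ140_A males M2, M3 and M4 (51.8%, 53.2% and 43.7%) were the lowest of the 20 mice, while M1 (68.2%) and M5 (75.5%) lay at the height of the females. On the 266 genes both sexes had a lower mean in LacQ140_A, 62.6 against 72.5 in females and 61.3 against 70.4 in males. The LacQ140_2M female F4 (88.3% on the 266 genes and 87.8% on the signature) weighed on the female means. Without F4 the LacQ140_2M females averaged 68.5 on the 266 genes and 66.6 on the signature, the latter below the 69.7 of the LacQ140_A females, and all LacQ140_2M mice 69.6 and 68.9. F4 also had the highest summed level of thalamus, hypothalamus and pallidum genes (412 CPM), whose part in its score was not tested. Leaving out F1, F2 and F3 put LacQ140_A at 62.1 on the 266 genes and 60.7 on the signature. The difference between the sexes in these scores was not tested.

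**Figure D3:**
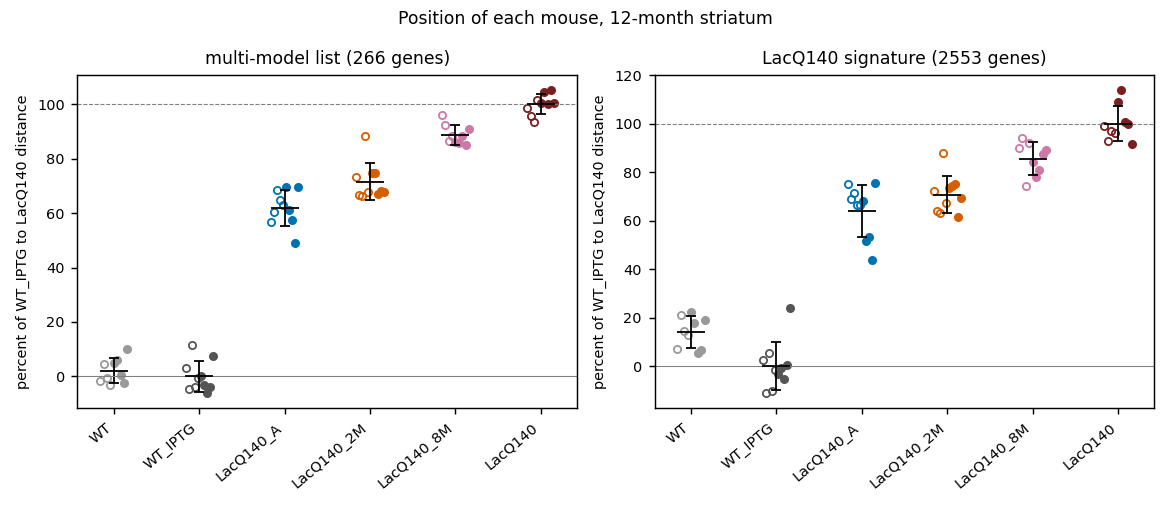
Position of each 12-month striatal library on the line from WT_IPTG (0%) to LacQ140 (100%), over the 266 multi-model genes (left) and 2553 signature genes (right). Open points are females, filled points males, bars mean ± SD. On the left LacQ140_A has a mean of 61.99% and LacQ140_2M of 71.4% with overlapping ranges, and LacQ140_8M lies above both at 88.8%.

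The best-known genes of striatal dysfunction did not separate the groups. Drd1 and Drd2, the dopamine receptors of the direct and indirect pathway neurons, differed by −0.02 ± 0.076 (SE; adjusted p = 1) and 0.04 ± 0.067 (adjusted p = 0.924) on the log2 scale. Drd1 was at 133, 165 and 227.7 CPM in LacQ140_A and at 139, 173 and 199 CPM in LacQ140_2M, while the mean was 252 CPM in WT_IPTG and 142 in LacQ140. The phosphodiesterase gene Pde10a (−0.06 ± 0.085, adjusted p = 0.874), the sodium channel subunit gene Scn4b (−0.05 ± 0.061, adjusted p = 0.843), the adenylate cyclase gene Adcy5 (−0.09 ± 0.054, adjusted p = 0.784) and Ppp1r1b (0.08 ± 0.070, adjusted p = 0.838) were likewise uncalled. The signs of the Drd1, Pde10a, Scn4b and Ppp1r1b differences turned without F1, F2 and F3.

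Gpx6, a glutathione peroxidase, and Ddit4l, an inhibitor of mTOR signalling, did not pass the test. Gpx6 was at 1.56, 2.73 and 4.41 CPM in LacQ140_A and at 1.31, 1.91 and 3.37 CPM in LacQ140_2M (log2 difference 0.43 ± 0.183, SE; adjusted p = 0.589; 0.16 without F1, F2 and F3), against a mean of 12.0 CPM in WT_IPTG. Ddit4l was at 8.81, 10.4 and 12.2 CPM in LacQ140_A and at 5.88, 8.86 and 11.2 CPM in LacQ140_2M (0.25 ± 0.089, adjusted p = 0.457; 0.24 without F1, F2 and F3), against 31.2 CPM in WT_IPTG. Sfmbt2, which encodes a Polycomb-group protein and holds a large microRNA cluster in an intron, was at 2.50, 3.14 and 4.25 CPM in LacQ140_A and at 3.30, 4.36 and 5.72 CPM in LacQ140_2M. All 10 LacQ140_A mice were under the LacQ140_2M median, and the log2 difference of −0.39 ± 0.103 missed the threshold (adjusted p = 0.162). It was −0.29 without F1, F2 and F3 (adjusted p = 0.802). Tmprss6, a protease that restrains hepcidin, differed by −0.02 (adjusted p = 1) and Abhd1, which overlaps Preb on the opposite strand, by 0.03 (adjusted p = 1), and the sign of each depended on single mice.

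Of 37 gene lists with 699 genes, 35 had no called member, and the list medians ran from −0.43 to 0.28. The highest, that of the cortical excitatory neuron genes, was 0.0056 without F1, F2 and F3. The lists and their genes were chosen with earlier results known, and medians are given beside those over all tested genes (0.00) and over the 14600 genes of at least 1 CPM (−0.0030).

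The developmental regulators that are silent in adult neurons held 2 called members, Wt1 and Onecut1. Of 36 measured, 20 were lower and 16 higher in LacQ140_A, with a median of −0.11 (0.09 in females, −0.02 in males, −0.06 without F1, F2 and F3). Of the 22 Polycomb and chromatin genes, 18 were lower in LacQ140_A with a median of −0.05 and 0 called, Sfmbt2 the lowest at −0.39. Their median was −0.13 in females, 0.0026 in males and −0.04 without F1, F2 and F3. Of the cholesterol genes, 19 of 23 were lower in LacQ140_A, with a median of −0.09 (females −0.06, males −0.13). Hsd17b7, an enzyme of the pathway, was at −0.19 ± 0.059 (SE; adjusted p = 0.320). The median over the cholesterol genes was −0.08 without F1, F2 and F3, and 6 of the 23 had an unadjusted p under 0.05 in that direction (beside 4.02% of all genes) against 0 in the other.

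Spiny neuron genes were near 0 as groups. The 30 signalling genes had a median of −0.04, the 10 direct-pathway genes −0.03 and the 10 indirect-pathway genes −0.03, with 0 called in each. Glutamate receptors (23 of 28 lower, median −0.06), GABA synthesis and receptor genes (16 of 20 lower, median −0.07), ion channels (22 of 28 lower, median −0.05) and synaptic vesicle genes (22 of 29 lower, median −0.05) had more members lower in LacQ140_A. Leaving out F1, F2 and F3 brought these medians to −0.00090, −0.03, 0.02 and −0.02. The ion channel median was −0.20 in females and 0.08 in males. The 41 nuclear oxidative phosphorylation subunits were higher in 35 of 41 (median 0.10, females 0.24, males −0.06), and their median was −0.03 without F1, F2 and F3. All 13 genes of the mitochondrial genome were higher (median 0.15) and came to −0.0010 without those females.

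None of the stress and hormone response genes was called. The glucocorticoid-responsive genes were higher in 13 of 15 with a median of 0.20 (females 0.20, males 0.13; 0.10 without F1, F2 and F3), among them Nfkbia (0.31 ± 0.119, SE; adjusted p = 0.513; 0.16 without these 3 females) and Tsc22d3 (0.25 ± 0.0995, adjusted p = 0.560; 0.14 without them), and 4 of the 15 had an unadjusted p under 0.05 in that direction beside 3.31% of all genes. The endoplasmic reticulum chaperones and their regulators were higher in 17 of 20 with a median of 0.07 in all mice, 0.09 in females and 0.09 in males, and 5 had an unadjusted p under 0.05 in that direction. In the striatum of the 6-month mice both lists lay the other way. There 14 of 15 glucocorticoid-responsive genes (median −0.35) and 17 of 20 chaperone genes (median −0.07) were lower in LacQ140_A. In the 12-month cortex the medians were 0.09 and −0.02. The heat shock and cold-inducible genes had 11 members higher and 10 lower, with a median of 0.0019 (−0.023 without F1, F2 and F3). The immediate early genes had a median of 0.19, with −0.25 in females and 0.35 in males, and of 0.30 without F1, F2 and F3. Clock genes had a median of 0.00, with Nr1d1, a repressor of the clock, at 90.4, 99.5 and 118 CPM in LacQ140_A and 97.7, 118 and 135 CPM in LacQ140_2M (−0.23 ± 0.057, adjusted p = 0.107).

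Markers of other cell types were used to compare the dissections. The oligodendrocyte markers were higher in LacQ140_A in 19 of 20 with a median of 0.12 (females 0.27, males −0.01), 0.05 without F1, F2 and F3. Their summed level ran from 12329 to 20266 CPM in LacQ140_A and from 11599 to 14898 CPM in LacQ140_2M, with F3 highest. Astrocyte and microglia markers had medians of −0.01 and 0.00. The choroid plexus markers were lower in LacQ140_A in 12 of 14 (median −0.29), their sum highest at 185 CPM in the LacQ140_2M female F5 and 31.6 to 62.3 CPM in LacQ140_A. Blood markers were lower in 8 of 9 (median −0.43), also highest in F5. Genes of thalamus, hypothalamus and pallidum summed to 412 CPM in the LacQ140_2M female F4 and 261.4 CPM in the LacQ140_A male M5 against group medians of 55.2 and 69.97 CPM, and F4 was the LacQ140_2M mouse with the lowest Drd2 (146 CPM), Scn4b (777 CPM) and Adcy5 (792 CPM). The part of these dissections in the results was not tested.

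**Figure D4:**
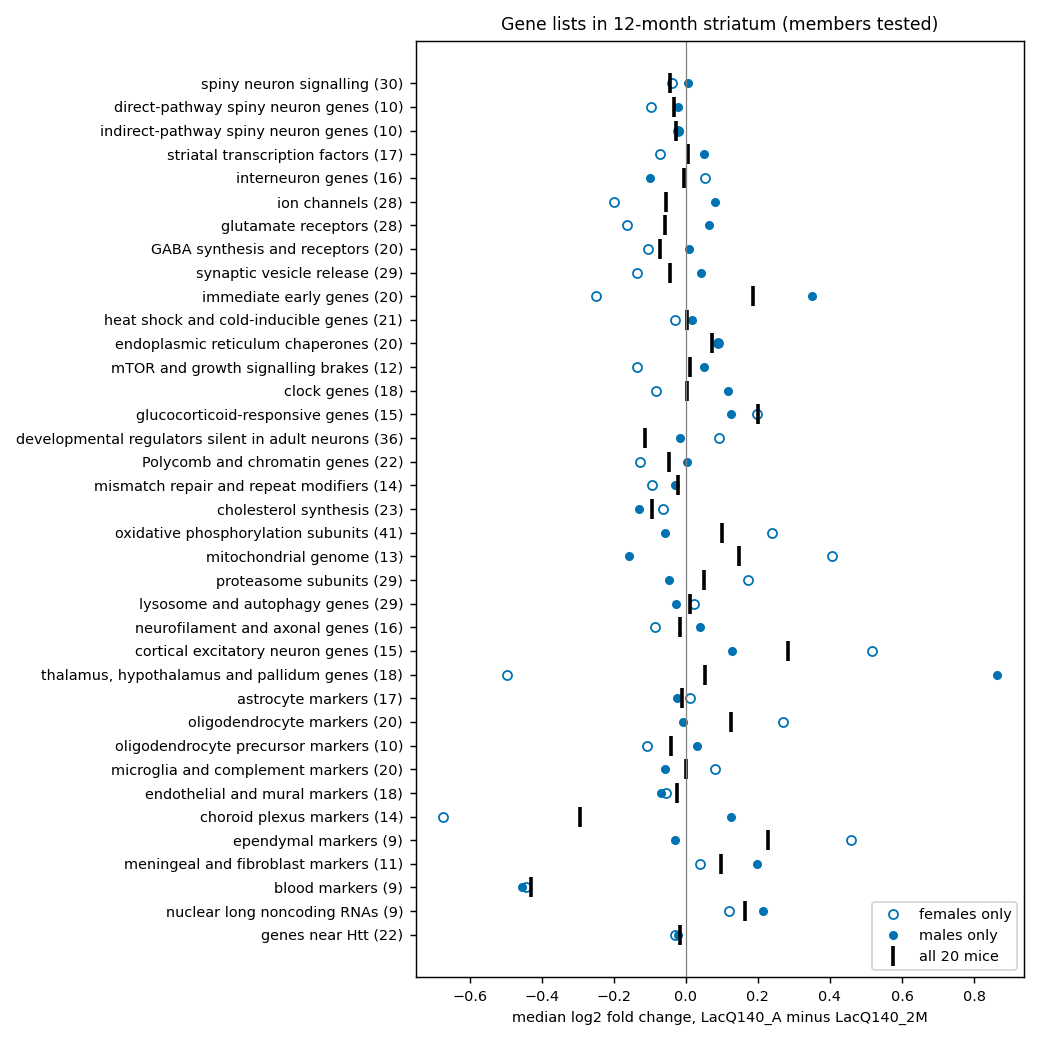
Median log2 fold change of LacQ140_A minus LacQ140_2M over the tested members of each of 37 gene lists (number tested in brackets) in all 20 mice (bars), females (open points) and males (filled points). Medians run from −0.43 for blood markers to 0.28 for cortical excitatory neuron genes (0.0056 without LacQ140_A F1, F2 and F3), and in many lists females and males lie on opposite sides of 0.

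Females and males gave different numbers of calls. Within females 1442 genes were called (4.08%), 528 higher (1.49%) and 914 lower (2.58%) in LacQ140_A, and within males 26 (0.0735%), 6 higher (0.017%) and 20 lower (0.0565%). The test of the difference itself called 1242 genes (3.51%), 446 with a larger value in females (1.26%) and 796 with a smaller (2.25%). Htt was among them, with a log2 difference of −0.31 ± 0.081 (SE) in females and 0.08 ± 0.081 in males (interaction −0.39 ± 0.114, adjusted p = 0.0422). The smallest interaction p-values at 1 CPM or more were those of Gfod1, Spry4, a feedback inhibitor of growth factor signalling, and Cdyl2, a chromodomain protein. Spry4 ran from 5.75 to 7.33 CPM in LacQ140_A females and from 8.33 to 11.4 CPM in LacQ140_2M females, and from 10.5 to 12.1 CPM and from 6.32 to 8.82 CPM in the males. The sexes' ranges thus did not overlap within LacQ140_A, and the interaction was −1.15 ± 0.194 (adjusted p = 0.00279).

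The calls between the sexes were compared with transcript length. The longest transcript of the genes called higher in the interaction had a median of 1358 nt and of those called lower 6368 nt, beside 2039 nt over all genes tested. In females the median log2 difference fell from 0.28 for transcripts up to 1000 nt to −0.24 for those over 8000 nt, and in males it rose from −0.09 to 0.09. Over all 20 mice it ran from 0.10 to −0.07. Without F1, F2 and F3 the interaction called 0 genes by edgeR, and with the length slope of each library as a covariate 1 gene (DESeq2 on all mice called 1577). Leaving out these 3 keeps only 2 LacQ140_A females, F4 and F5, in the fit, and in both Spry4 (6.53 and 7.33 CPM) still lay below every LacQ140_2M female. Their slopes were 0.451 and 0.415, beside 0.448 to 0.524 in the LacQ140_2M females. In males the slopes of M1, M2 and M3 were 0.526 to 0.546 in LacQ140_A and 0.408 to 0.419 in LacQ140_2M. Those of M4 and M5 lay the other way, at 0.477 and 0.420 against 0.530 and 0.489. The cause of the low slopes was not tested.

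**Figure D5:**
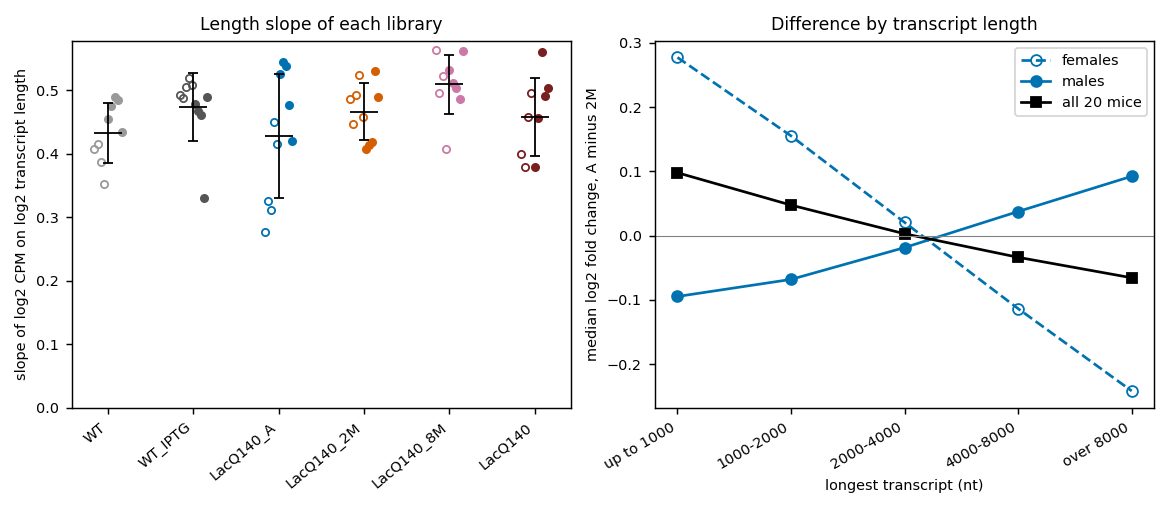
Left, slope of log2 CPM on log2 transcript length in each 12-month striatal library by group, with open points for females, filled points for males and bars for mean ± SD. Right, median log2 fold change of LacQ140_A minus LacQ140_2M by longest transcript in females (dashed), males (solid) and all 20 mice (squares), which in females falls from 0.28 to −0.24.

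The same mice gave cortex, where 29 genes were called (0.0841%), all 29 lower in LacQ140_A. Of these, 8 were still called without the LacQ140_2M male M5 and 21 without the LacQ140_2M female F4. Adipoq, the adipocyte hormone adiponectin, reached 25.3 CPM in the LacQ140_2M female F4 with a group median of 0.0493 CPM, and 18 of the 20 T and NK cell genes were highest in M5. Without both mice 1 of the 29 was still called. DESeq2 called 0 genes in cortex, and edgeR with the length slope as a covariate called 84, 43 higher and 41 lower. Of the genes called in striatum and described here, the lymphocyte genes Cd8b1, Ms4a4b, Il18r1 and Trbc1 were also called in cortex (log2 differences −4.85, −3.88, −4.71 and −3.35, adjusted p = 0.000688, 0.00192, 0.01497 and 0.00746), and the other 12 were not. Wt1 differed by 0.04 ± 0.322 (SE; adjusted p = 1) at medians of 0.249 and 0.340 CPM, and Bahcc1 by −0.12 (adjusted p = 0.963).

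At 6 months, in other mice, lowering from conception and from 2 months differed in 9 striatal genes (0.0251%), 7 higher (0.0195%) and 2 lower (0.00559%) in LacQ140_A. The pituitary hormone genes Gh, Prl and Cga were among the higher, with Gh at up to 43.9 CPM in LacQ140_A, where its median was 0.477, and the summed pituitary genes were at 118 and 89.8 CPM in 2 mice (F1 and M1) and at most 6.88 CPM in the other 8. Without these 2 mice 1 gene was called, Gm26723, which was high in 1 LacQ140_A mouse (26.0 CPM) at that age too. Wt1 and Onecut1 were low at 6 months. Wt1 had medians of 0.0733 CPM in LacQ140_A and 0.0567 CPM in LacQ140_2M beside a LacQ140 mean of 0.605, and its log2 difference was −0.14 ± 0.481 (adjusted p = 1). Bahcc1 stood at medians of 29.2 CPM in LacQ140_A and 25.3 CPM in LacQ140_2M (0.22 ± 0.091, adjusted p = 0.582), the opposite order to that at 12 months, and Asb18 at 4.23 and 4.49 CPM (−0.06 ± 0.096, adjusted p = 0.945). The 2 ages lie in separately made tables and batches, and the change between them was not tested.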

How the data were processed

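Bulk RNA sequencing libraries of striatum and cortex were read from the count tables the authors deposited. Values are expected counts per gene, which the authors made on GRCm38 with GENCODE vM21 per the submitters' processing notes. The quantifier and its strand setting are not given in the sources used here. At 12 months 31.58% of the nonzero values are not whole, so values were rounded.

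Genes with at least 1 count in a tissue and age entered edgeR 4.0.16 (quasi-likelihood test, TMM scaling, R 4.3.3), with group as the factor over all groups of that tissue and age, and for the sexes sex and group together. Adjusted p-values are Benjamini-Hochberg over all genes tested. A call needs 0.05 and a difference of 20%. Alternatives were DESeq2 1.42.0 and its size factors, filterByExpr, only the groups compared, the length slope, sex or the replicate number as a covariate, and fits without single mice or sets of mice. The position score is the slope of a mouse's distance from the WT_IPTG mean on the LacQ140 distance, on log2(CPM + 0.1). Tables and figures used Python 3.11.15, pandas 2.3.3, NumPy 2.4.6 and matplotlib 3.10.9. The edgeR fits were tested on simulated data.

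The members and gene lists were chosen with earlier results of these data known. Named were Htt, genes known from the study or from those results, up to 12 called genes in each direction at a mean of 1 CPM or more (filled to 6 with uncalled ones), up to 4 called genes below it, up to 2 genes of each list and up to 3 of the sex interaction, by smallest p. The sex labels were checked in the 12-month striatal libraries only, by Xist and Y-linked counts, and none of these went against its label (0 mismatches). Libraries of a group differed beyond sampling noise (lowest chi-square per degree of freedom 9.17 over 90 pairs), so each counted as a replicate. Some items are not reported here. Lengths are those of a gene's longest annotated transcript.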

Additional observations from a re-analysis of the deposited data

Results flagged for a closer look

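Dixon's criterion, the gap to the next mouse over the whole range, was read for the highest and lowest mouse of each group of 10. It was passed 18 times over 118 gene and group pairs of the named genes. Chance flags about 5% of groups. That rate is for genes not picked by their values, while several of these were named through a few high mice. In LacQ140_2M, M5 stood apart as the highest for Cd8b1 (4.50 CPM), Ms4a4b (7.29), Il18r1 (1.94) and Trbc1 (2.68), and in LacQ140_A M1 was the highest for Trbc1 at 0.173 CPM. The LacQ140_2M female F4 was the lowest for Drd2 (146 CPM), Scn4b (777 CPM) and Adcy5 (792 CPM), F5 the highest for the choroid plexus genes Ttr (134 CPM) and Kl (9.38 CPM), and F2 the highest for Gpx6 (3.37 CPM). In LacQ140_A, F1 was the highest for Gm26723 (90.1 CPM), Gm17139 (1.961 CPM) and Gm26702 (33.4 CPM), a noncoding RNA opposite Ajm1 that was not called, and F3 for the myelin gene Mbp (9921 CPM). At the low end, LacQ140_2M M2 was the highest for Gm26723 (0.405 CPM) and Gdf1 (0.0810 CPM), and M3 for Gm17139 (0.0676 CPM).

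The difference between LacQ140_A and LacQ140_2M itself differed between the sexes in 1242 genes by the interaction test. Among the named genes the female minus male difference was −0.39 for Htt, −0.84 for Gfod1, −1.15 for Spry4, −1.34 for Cdyl2 and −0.40 for the calcium channel gene Cacna1a, on the log2 scale. These calls were lost without the LacQ140_A females F1, F2 and F3, where 0 genes passed.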

How the results depend on the processing

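Of 1762 values of named genes under alternative settings, 1593 kept direction and call, 117 lost the call, 7 gained it and 45 changed sign. The cause of the changes was not tested unless the setting itself removes the mice concerned. Settings that leave out sets of mice were chosen after seeing the data. The 18 striatal calls became 15 with DESeq2 (7 shared with the 18), 13 with the length slope (9 shared), 11 with filterByExpr, 5 with only the groups compared, 4 without F1, F2 and F3, and 2 without these and M5. Leaving out 1 mouse gave 9 to 31 (9 without LacQ140_A F1, 10 without LacQ140_2M M5, 11 without LacQ140_A M5, 31 without LacQ140_A M1). The 1242 interaction calls became 1955 with filterByExpr, 752 with only the groups compared, 1 with the length slope, 0 without F1, F2 and F3, and 207 to 2005 without 1 mouse, lowest without LacQ140_A F1 and highest without LacQ140_2M M4. The 29 cortical calls became 0 with DESeq2, 1 with filterByExpr, 3 with only the groups compared, 84 with the length slope (43 higher, 41 lower), 8 without M5 and 1 without M5 and F4. The 9 calls at 6 months became 20 with DESeq2, 5 with only the groups compared and 1 without F1 and M1. The 3 called list members became 1 without F1, F2 and F3, 1 without these and M5, 0 with only the groups compared and 0 to 3 without 1 mouse.

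The replicate numbers did not pair the mice: of 10 pairs 4 correlated over 0.1 (−0.25 to 0.35) and 1 best with its own number. The replicate block gave 19 striatal calls, 13 of them shared, 903 in the interaction, 9 in cortex, 12 at 6 months, 2 list members and 3231 signature genes. Onecut1 (adjusted p = 0.0584), Gk5 (0.0528), Gm17139 (0.0752), Trbc1 (0.165) and Il18r1 (0.324) were not called under the block in the edgeR fit.

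Signs changed as follows, in log2. Without F1, F2 and F3, and then also without M5, Htt was at 0.0014 and 0.022, Pde10a at 0.082 and 0.092, Drd1 at 0.083 and 0.075, Scn4b at 0.023 and 0.018, Ppp1r1b at −0.0042 and −0.0086, Abhd1 at −0.068 and −0.048, Gm26702 at −5.95 and −6.11 and Gfod1 at 0.058 and 0.070, and without all 4 Trbc1 at 0.50. With the length slope, Drd1 was at 0.032, Abhd1 at −0.033 and Gm26702 at −0.58. DESeq2 gave Ms4a4b 0.042, Il18r1 0.35 and Trbc1 0.40. Tmprss6 was at 0.0053 with the block, 0.00046 with sex and −0.082 to 0.081 without 1 mouse. Without 1 mouse, Drd1 ran from −0.076 to 0.018, Drd2 from −0.0037 to 0.075, Spry4 from −0.016 to 0.098, Abhd1 from −0.0025 to 0.063, Ms4a4b from −3.98 to 0.038, Il18r1 from −4.25 to 0.18 and Trbc1 from −4.19 to 0.29, the last 3 positive without LacQ140_2M M5 alone.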
